A study of Mus musculus with 16 samples.

Results

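B cells can be made to divide in culture by ligation of CD40 together with IL4, which stand in for T cell help, or by an antibody against RP105, a Toll-like receptor relative on their surface. The libraries compared here were made after either kind of stimulation in cells labelled WT, and they list where in the mouse genome a cut end of the Myc gene had been joined to another end. All junctions of the 3 libraries labelled WT under RP105 (23389) and of the 4 WT libraries under anti-CD40 plus IL4 (25851) were taken, which is 49240 of the 141167 junctions in the 16 libraries of the series. Each junction was given to a region by the position of the joined end, called the prey, and no junction was chosen by its value.

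Every group came from splenic IgM+ B cells of 129sv mice aged 6 to 8 weeks. On chromosome 15 these cells carry 25 I-SceI cutting sites, placed as a cassette into intron 1 of Myc on 1 allele, and received the I-SceI enzyme from a retrovirus. For anti-CD40/IL4 the doses were 1 µg/mL anti-CD40 and 20 ng/mL IL4, with infection after 24 h and harvest at day 4. For RP105 the antibody was used at 2 µg/mL, with infection after 48 h and harvest at day 5. The anti-CD40/IL4 libraries were read on a 454 sequencer and the RP105 libraries on a MiSeq, in runs that no library of the other group shared. Stimulus, infection time, harvest day and sequencer therefore cannot be told apart. The remaining 3 groups, each of 3 libraries, serve as side values: ATM-deficient cells under anti-CD40/IL4, WT cells under anti-CD40/IL4 with the ATM inhibitor KU55933 at 10 µM (MiSeq), and the libraries labelled ATM-deficient under RP105 (MiSeq). A retrovirus cuts only in cells that divide, the assay sees only joins to 1 bait locus, and the labels do not say whether replicate libraries came from separate mice, so the p-values measure the spread between these libraries.

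Translocations arise when ends of separate DNA breaks are joined to each other. In activated B cells the enzyme AID deaminates cytosines in the switch regions of the heavy chain locus Igh, which lie before each set of constant region exons, and the resulting breaks are joined to change the antibody class. AID also acts at lower rates on other transcribed genes, such as Pim1 and Cd83. Anti-CD40 with IL4 is known to direct switching to Igg1 and Ige, from the switch region Smu to Sg1 and Se, whereas antibodies to RP105 make B cells divide with little switching.

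The genes called in this comparison were switch regions, so the 60-base stretch with most junctions in each of 4 of them is shown on the plus strand of mm9, with the preferred AID target word AGCT in capitals.
Smu, chr12:114663909-114663968: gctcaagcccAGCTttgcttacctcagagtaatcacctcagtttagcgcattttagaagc
Sg1, chr12:114575325-114575384: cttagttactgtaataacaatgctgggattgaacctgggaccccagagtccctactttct
Se, chr12:114514500-114514559: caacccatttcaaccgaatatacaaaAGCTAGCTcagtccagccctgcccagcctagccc
Sg3, chr12:114601567-114601626: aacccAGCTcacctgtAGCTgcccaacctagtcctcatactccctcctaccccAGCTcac
The Smu stretch held 33 junctions under anti-CD40/IL4 and 3 under RP105, the Sg1 stretch 12 and 0, the Se stretch 21 and 0, and the Sg3 stretch 0 and 3. AGCT reads the same on both strands, and it stood in the 50 prey bases of 70.8% of 178 Smu junctions under anti-CD40/IL4 and of 11 of 14 under RP105. For Sg1 the share was 58.5% of 123 junctions under anti-CD40/IL4 and 4 of 5 under RP105. For Se it was 85.8% of 155 junctions and 2 of 3, and for Sg3 it was 7 of 8 under RP105. Outside Igh and chromosome 15 it was 23.8% and 21.7%, and of 32851 stretches of 50 bases from RefSeq promoters (GRCm38.p6) 21.7% held the word.

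Before the results, the labels under RP105 need a remark. ATM is a kinase that signals DNA breaks and helps to hold their ends. Under anti-CD40/IL4 its loss or its inhibition went with fewer junctions within 1 Mb of the break: 78.7% ± 2.43 (SD, n = 4) of all junctions in WT, 54.6% ± 4.25 (n = 3) in ATM-deficient cells and 54.1% ± 1.53 (n = 3) with KU55933. Under RP105 the order of the labels was opposite, with 64.2% ± 1.43 in the libraries labelled WT and 87.3% ± 1.38 in those labelled ATM-deficient. The share on chromosome 12 centromeric of Igh showed the same crossing: 3.17% ± 0.640, 8.70% ± 1.38 and 6.82% ± 0.260 in these 3 anti-CD40/IL4 groups, against 11.9% ± 0.525 and 4.42% ± 1.13 in the libraries labelled WT and ATM-deficient under RP105. For this reason each main result is given for the libraries as labelled and again with the RP105 libraries labelled ATM-deficient in place of those labelled WT, called the exchange below.

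Counts per region were compared with edgeR's quasi-likelihood test fitted to all 16 libraries, with Benjamini-Hochberg adjustment over all regions of a tally and a threshold of 0.05. A log2 difference is RP105 minus anti-CD40/IL4, with its standard error (SE). For shares per library an exact permutation test was used, two-sided, for which 3 against 4 libraries give 35 splits and a smallest p of 0.0286. Of 59 shares tested, 34 did not overlap between the groups (57.6%), 15 higher (25.4%) and 19 lower (32.2%) under RP105. In the exact test 30 of the 59 had p = 0.0286, and 0.0562 after adjustment over the 59, which misses the threshold, so a change is stated below only where the edgeR test passed.

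Libraries held 4674 to 8379 junctions under anti-CD40/IL4, of which 731 to 1509 lay outside chromosome 15, and 4484 to 11627 under RP105, of which 956 to 2496 did. A region with no junction could thus hold up to 0.120% to 0.410% of the junctions outside chromosome 15 of a library, counting error only. The anti-CD40/IL4 libraries had 4457 junctions outside chromosome 15 in all, and the RP105 libraries 5076. Prey starting in a CA repeat made up 8.13% ± 0.911 of junctions outside chromosome 15 under RP105 and 0.568% ± 0.426 under anti-CD40/IL4, against 17.2% in the libraries labelled ATM-deficient under RP105 and 2.05% with KU55933. Its part in the results was tested by leaving those junctions out, and is given where it mattered. Of 9348 prey positions outside chromosome 15, 121 occurred in more than 1 of the 7 libraries and 61 in both groups. As a check of the cell label, Igh held 580 and 84 junctions, Igk 22 and 30, and the 3 T cell receptor loci together 3 and 1, for anti-CD40/IL4 and RP105 in that order.

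The constant and switch part of Igh (chr12:114427082-114664838) lost most of its junctions. Among the junctions outside chromosome 15 it held 13.4%, 11.3%, 12.1% and 14.2% in the 4 anti-CD40/IL4 libraries and 0.985%, 1.57% and 1.36% in the RP105 libraries. The groups lay far apart, and the highest RP105 library had less than any other WT library by a wide margin. The difference was -3.30 (SE 0.20, adjusted p = 7.23e-15 by edgeR), a 9.87-fold fall, and it was -3.29 in the exchange. Of the 29 regions outside chromosome 15, 4 were called (13.8%), 3 higher (10.3%) and 1 lower (3.45%), and Igh was the lower one. With junctions beyond 1 Mb on chromosome 15 kept in the library size, the calls were 2 higher and 12 lower. With KU55933 under anti-CD40/IL4, on the MiSeq, the share was 9.01% (range 8.17% to 9.74%), and ATM-deficient cells under anti-CD40/IL4 had 5.83%.

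**Figure D1:**
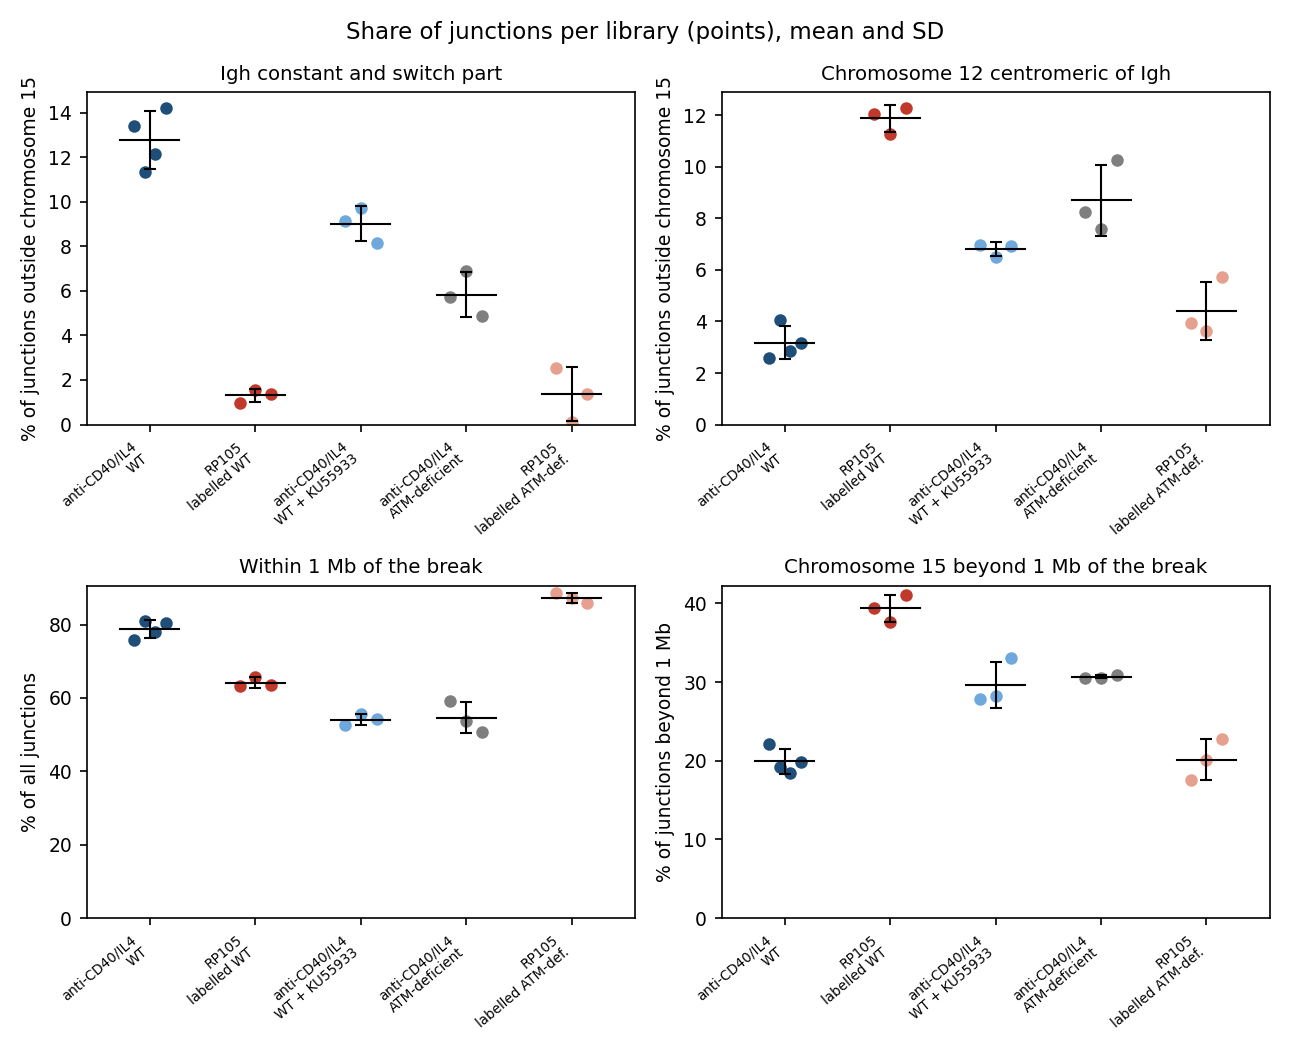
Each point is the percentage of junctions of 1 library, in the constant and switch part of Igh and on chromosome 12 centromeric of Igh (of junctions outside chromosome 15), within 1 Mb of the break (of all junctions) and on chromosome 15 beyond 1 Mb (of junctions beyond 1 Mb), with the mean and SD of each group. Both RP105 groups lie low at Igh, while in the other panels the group labelled ATM-deficient under RP105 lies away from the group labelled WT.

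Among the switch regions, 3 fell. Smu, the donor of switching, held 59, 43, 58 and 45 junctions in the anti-CD40/IL4 libraries and 6, 4 and 7 in the RP105 libraries (-3.77, SE 0.70, adjusted p = 4.28e-06 by edgeR). Sg1, which serves the Igg1 class, held 30, 19, 50 and 33 against 1, 0 and 5 (-4.68, SE 0.79, adjusted p = 2.44e-07). Se, which serves the Ige class, held 73, 34, 61 and 20 against 0, 0 and 4 (-5.65, SE 0.79, adjusted p = 1.85e-10). No RP105 library came near an anti-CD40/IL4 library at any of the 3. As shares of junctions outside chromosome 15, Smu went with 4.81% ± 0.973 against 0.356% ± 0.0699, Sg1 with 3.05% ± 1.11 against 0.0873% ± 0.103, and Se with 4.02% ± 1.18 against 0.0534% ± 0.0925.

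Those 3 were the genes called, of 162 with at least 10 junctions over all libraries (1.85%), all lower, while 25 of the 162 had an unadjusted p under 0.05. None was called higher. The DESeq2 test called 10, all lower, with a median log2 difference of -1.89 over the 162 genes. Sg3, which serves the Igg3 class, went the other way in its counts, with no junction in any of the 4 anti-CD40/IL4 libraries and 2, 5 and 2 in the RP105 libraries. In these counts that is at least 2.63-fold higher, with the floor at 3 counts over the group, but Sg3 was not called in the main fit. The adjusted p was 0.0814 by edgeR, 0.0423 without RP105 replicate 3, and up to 0.269 in the other fits that leave out 1 library. Sg2a had 2 junctions in each group, Sa 2 under anti-CD40/IL4 and none under RP105, and Sg2b none in either group. Over the 7 switch regions the sum was 529 against 38 junctions. Of the 6 tested, 5 had a negative log2 difference, with a median of -3.42 beside -0.15 over all genes tested. Sa and Sg2a reached the minimum for testing only with the junctions of the KU55933 libraries counted, 9 and 5. In the exchange Smu had -3.11 and Sg1 -3.81, both called. The labelled ATM-deficient RP105 libraries had no Se junction and 1 Sg3 junction. For Sg3 the exchange gave 2.98 (adjusted p = 0.681 by edgeR), not called.

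The rest of the Igh constant region, outside the switch regions, differed by less. It held 0.653% ± 0.132 of junctions outside chromosome 15 under anti-CD40/IL4 (29 junctions) and 0.518% ± 0.0851 under RP105 (27 junctions), exact permutation p = 0.229 and 0.306 adjusted. The segment from the J exons to the D segments held 12 junctions in each group (-0.18, SE 0.69), and the V segments held 3 and 7 (0.97, SE 1.02). Neither passed the test. The light chain loci did not pass it either: Igk held 0.459%, 0.549%, 0.729% and 0% against 0.554%, 0.314% and 0.721% (0.25, SE 0.53), and Igl 2 against 7 junctions (1.50, SE 1.08). Wide errors on these small counts leave room for changes in either direction.

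Genes known as AID targets outside the antibody loci had few junctions under RP105. A list of 31 of them, most known from B cells under a stimulus like anti-CD40/IL4, held 2.75%, 2.31%, 1.33% and 1.78% of junctions outside chromosome 15 in the anti-CD40/IL4 libraries and 0.246%, 0.105% and 0.561% in the RP105 libraries. The groups did not overlap, with 90 against 19 junctions. Of the 31 genes, 15 could be tested, none passed the test, 14 had a negative and none a positive log2 difference, and the median was -2.23 beside -0.15 over all 162 genes. With genes that had no junction in a group taken at their bound, the median was -1.89 over 11 genes, beside -0.16 over 116 of all. The minimum for testing counted junctions over all libraries, most of which were under anti-CD40/IL4. Some members reached it only with the KU55933 libraries counted. Clec2d had 1 against 0 junctions and 29 with KU55933, and Socs2 1 against 0 and 21. The signs and medians therefore partly reflect this minimum and cannot alone show a fall. The shares of the list did not use it, but the list was chosen with earlier results of these data known. The exact permutation p of the share was 0.0286, and 0.0562 adjusted, which misses the threshold. Of all 59 shares, 34 (57.6%) did not overlap either. In the libraries labelled ATM-deficient under RP105 the share was 0.507%, and with KU55933 it was 4.45%.

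The 4 genes with most junctions on this list are given with their counts. Il4ra, the receptor chain for IL4, held 9, 1, 6 and 5 junctions under anti-CD40/IL4, against 0, 0 and 4 under RP105 (-2.56, SE 0.81, adjusted p = 0.0695 by edgeR). Pim1, a serine/threonine kinase and a classic target of mutation in lymphoma, held 2, 6, 4 and 4 against 0, 0 and 3 (-2.60, SE 0.86, adjusted p = 0.0709). Cd83, a surface marker of activated B cells, held 7, 2, 2 and 0 against 0, 0 and 1 (-3.29, SE 1.09, adjusted p = 0.0709). Il21r, the receptor for IL21, which was added after its values were seen, held 2, 2, 2 and 1 against 0, 0 and 1 (-2.69, SE 1.18, adjusted p = 0.197). All of the RP105 junctions in these 4 genes came from RP105 replicate 3, the deepest library, and without it both Il4ra and Pim1 had none under RP105, at least 4.05-fold and 3.09-fold lower with the floor at 3 counts over the group, and were called. Il4ra was also called without anti-CD40/IL4 replicate 2 (-2.85) and Pim1 without anti-CD40/IL4 replicate 1 (-2.90). In the other fits that leave out 1 library neither was called, with an adjusted p of up to 0.355 by edgeR for each. Cd83 and Il21r were called in no such fit, with an adjusted p of up to 0.481 and 0.454 by edgeR. In the exchange Il4ra gave -1.54, Pim1 -3.06, Cd83 -0.96 and Il21r -4.78. None of them was called there, with an adjusted p of 0.159 to 0.705 by edgeR. With DESeq2 all 4 were called (-4.17 for Il4ra, -4.42 for Pim1, -4.88 for Cd83 and -4.44 for Il21r), as they were with the run as a random block in limma voom (-2.71, -2.78, -2.18 and -2.17). The median over all 162 genes was -1.89 with DESeq2 and -0.39 with limma voom, beside -0.15 in the main fit. DESeq2 thus placed genes in general lower, and its values for these 4 include that shift.

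Genes of early replicating fragile sites, among them the Gimap family and Foxp1, held 8 junctions under anti-CD40/IL4 and 7 under RP105. Long, late replicating genes such as Cntnap2 and Wwox held 11 and 10. In these 2 lists of 14 genes each, 3 and 5 were tested, with none called. The median log2 difference was 0 for each list, beside -0.15 over all genes, but that 0 came from a gene with no junction in either group. With genes that had no junction in a group taken at their bound or left out, the medians were -0.31 over 2 genes and -0.21 over 3. Over 116 of all genes it was -0.16.

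**Figure D2:**
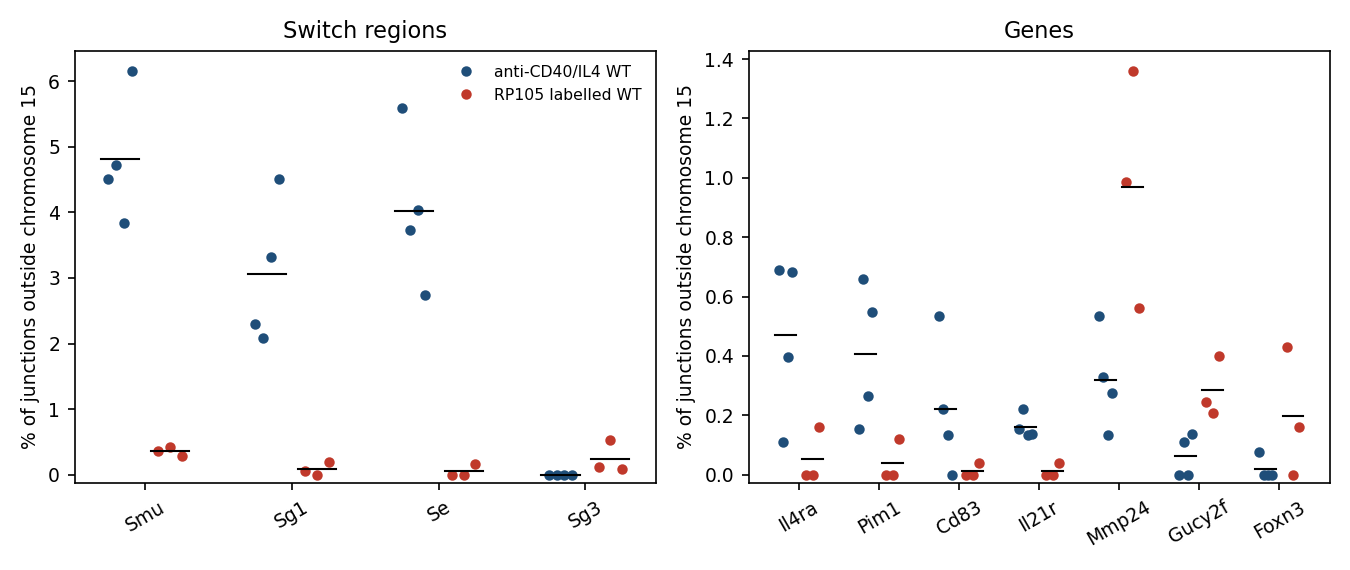
Each point is the percentage of a library's junctions outside chromosome 15 that lay in the named switch region (left) or gene (right), with the mean of each group as a bar. Smu, Sg1 and Se lie between 2.09% and 6.16% in every anti-CD40/IL4 library and at or under 0.418% in every RP105 library, while Sg3 is 0% in all 4 anti-CD40/IL4 libraries.

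On chromosome 12 centromeric of Igh, junctions rose as those in Igh fell. That part held 2.60%, 4.07%, 2.85% and 3.15% of junctions outside chromosome 15 under anti-CD40/IL4, against 12.1%, 11.3% and 12.3% under RP105. The lowest RP105 library had more than any anti-CD40/IL4 library. The difference was 1.96 (SE 0.14, adjusted p = 1.49e-13 by edgeR), a 3.88-fold rise, and 0.59 in the exchange (adjusted p = 0.0300). In the whole-genome fit it was 2.28 as labelled and -0.18 in the exchange (adjusted p = 0.460 by edgeR). KU55933 against none gave 1.14 in the fit outside chromosome 15 and 2.05 in the whole-genome fit. Chromosome 12 as a whole held 16.4% ± 1.09 under anti-CD40/IL4 and 13.7% ± 0.486 under RP105. As labelled, the 2 parts thus moved against each other within a total that differed less. This did not hold in the exchange, where the libraries labelled ATM-deficient under RP105 had 6.04% ± 1.75 on chromosome 12. The short part telomeric of Igh gave 0.13 (SE 0.93), not called.

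The density under RP105 was highest next to Igh. In the last stretch before the locus, from 110 Mb on, there were 7.15 ± 0.785 junctions per Mb per 1000 outside chromosome 15 under RP105 and 1.54 ± 0.478 under anti-CD40/IL4. From 100 to 110 Mb the values were 3.39 ± 0.440 and 0.449 ± 0.253. From 80 to 90 Mb they were 1.49 ± 0.218 and 0.646 ± 0.214, and over the first 10 Mb of the chromosome 0.185 ± 0.0245 and 0.182 ± 0.185. The density under RP105 did not go down in every step, with 0.873 from 90 to 100 Mb. In most steps short of 70 Mb the libraries of the groups overlapped, but from 20 to 30 Mb the RP105 libraries (mean 0.267) lay above those of anti-CD40/IL4 (0.0342), and from 30 to 40 Mb likewise (0.377 and 0.0881). In the libraries labelled ATM-deficient under RP105 the last stretch held 1.79 and the one before it 0.598, and with KU55933 they held 5.00 and 1.03. The strand of these prey was near even in both groups, with 54.7% ± 1.93 on the plus strand under RP105 and 47.9% ± 6.97 under anti-CD40/IL4 (exact permutation p = 0.143).

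**Figure D3:**
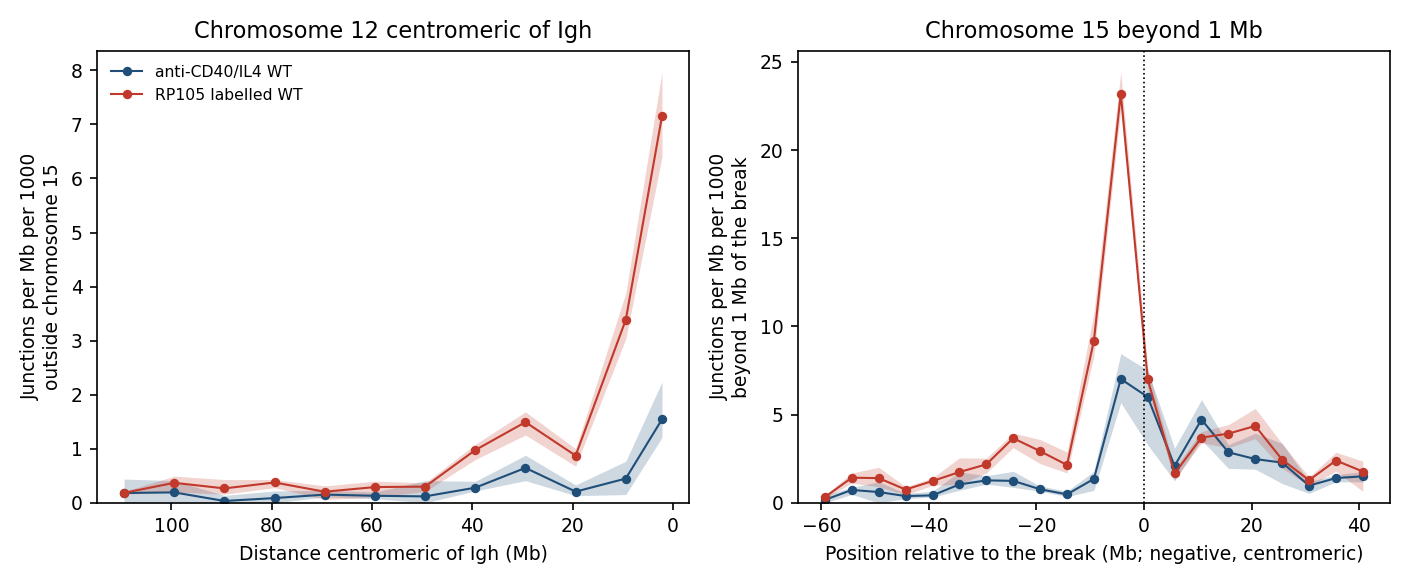
Left, junctions per Mb per 1000 outside chromosome 15, in 10 Mb steps of chromosome 12 against the distance from Igh. Right, junctions per Mb per 1000 beyond 1 Mb of the break, in 5 Mb steps of chromosome 15 against the position relative to the break. Points are group means and bands span the lowest to the highest library. Under RP105 the density climbs to 7.15 next to Igh and to 23.2 on the centromeric side of the break, and on the telomeric side the bands of both groups lie close together.

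In steps of 5 Mb, 7 of 455 bins outside chromosome 15 were called (1.54%), 4 higher (0.879%) and 3 lower (0.659%). On chromosome 12 the bin at 105 to 110 Mb had 37, 19 and 52 junctions under RP105 and 0, 4, 4 and 2 under anti-CD40/IL4 (3.20, SE 0.43, adjusted p = 5.24e-11 by edgeR). The bin at 100 to 105 Mb had 26, 10 and 29 against 2, 3, 3 and 1 (2.63, SE 0.47). In the exchange they gave 0.80 and 0.46, neither called. The bin at 110 to 115 Mb, which holds the switch regions, fell by 1.53 (SE 0.30), from 608 to 243 junctions. Junctions in these bins were spread over many genes. Foxn3, a forkhead transcription factor, had the most in the 100 Mb bin, with 7, 0 and 4 against 1, 0, 0 and 0, and as a gene it did not pass (2.96, SE 1.20, adjusted p = 0.161). Others held a handful each, such as Dicer1, the RNase that makes miRNAs, with 3 against 0, and Evl, an actin regulator, with 4 against 0.

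The remaining 4 called bins rested on few junctions and were lost when single libraries were left out. The bin at 85 to 90 Mb of chromosome 12 had 52 against 15 junctions (1.57, SE 0.44), and was lost without anti-CD40/IL4 replicate 1 or 3 or RP105 replicate 1 or 3. On chromosome 10 the bin at 40 to 45 Mb had 24 against 3 (2.69, SE 0.72), 17 of the 24 from RP105 replicate 3, and was lost without that library or anti-CD40/IL4 replicate 1 or 3. The bin at 100 to 105 Mb had 2 against 15 (-2.92, SE 0.85), and was lost without any of anti-CD40/IL4 replicates 1, 2 and 4 and RP105 replicates 1 and 2. On chromosome 8 the bin at 95 to 100 Mb had 3 against 21 (-2.87, SE 0.73), and was lost without replicate 3 of either group. In that bin Ccl22, a chemokine that activated B cells can make, had 5 junctions under anti-CD40/IL4 and none under RP105.

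Chromosomes 19 and 11 were also called higher. Chromosome 19 held 2.45%, 1.98%, 2.78% and 3.28% of junctions outside chromosome 15 against 4.495%, 3.87% and 3.73% (0.62, SE 0.17, adjusted p = 0.0119 by edgeR), and -0.06 in the exchange. It was no longer called without anti-CD40/IL4 replicate 2 (0.53) or RP105 replicate 1 (0.53). Chromosome 11 held 8.57%, 6.92%, 7.22% and 5.88% against 9.17%, 9.62% and 9.01% (0.33, SE 0.11, adjusted p = 0.0329). It was called in 1 of the 7 fits that leave out a library, the one without anti-CD40/IL4 replicate 1, and it was not called without the junctions that start in a CA repeat (0.28). Neither chromosome was called with DESeq2 (0.61 and 0.35), nor with junctions beyond 1 Mb on chromosome 15 kept in the library size (0.21 and -0.07). For the other chromosomes, the log2 difference lay between -1.14 (chromosome Y) and 0.33 (chromosome 14), and none was called.

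A small number of narrow sites outside chromosome 15 collected junctions from many libraries. There were 8 such sites, chosen by having at least 10 junctions with gaps of at most 100 bases over the 7 compared libraries. Igh and prey starting in a CA repeat were left out of that choice. As the compared libraries chose the sites, the totals are a description and were not tested. The 8 sites held 111 junctions under RP105 and 38 under anti-CD40/IL4, or 2.34% ± 0.513 and 0.812% ± 0.262 of those outside chromosome 15. Prey bases at 6 of them matched the I-SceI cutting site itself in at least 13 of its 18 letters. The 4 of these whose deposited prey cover 40 bases around the match are shown, with capitals for the letters that match the 18-base site.
Site on chromosome 1, chr1:31667672-31667711, minus strand: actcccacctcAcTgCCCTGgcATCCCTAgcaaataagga
Site in Fermt2, chr14:46096815-46096854, plus strand: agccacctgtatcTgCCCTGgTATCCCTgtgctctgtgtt
Site in Mmp24, chr2:155631469-155631508, minus strand: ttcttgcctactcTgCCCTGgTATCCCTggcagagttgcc
Site in Gucy2f, chrX:138520776-138520815, plus strand: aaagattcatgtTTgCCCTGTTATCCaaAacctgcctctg
The best match had 14, 13, 13 and 14 of 18 letters in this order, with both strands searched. The 2 not shown matched in 17 letters (in Scd2) and 15 (on chromosome 1). At least 13 letters matched in 1.25% of 32851 RefSeq promoter windows of 300 bases. Such matches describe these bases only.

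At these 4 sites the junctions numbered 22 under RP105 and 4 under anti-CD40/IL4 on chromosome 1, 10 and 6 in Fermt2, 31 and 11 in Mmp24, and 12 and 1 in Gucy2f. Mmp24, a membrane-bound metalloproteinase, had 16, 13 and 14 junctions over the whole gene under RP105 and 7, 3, 2 and 2 under anti-CD40/IL4. Every RP105 library lay above every other one. As a gene it did not pass over all genes (1.53, SE 0.59, adjusted p = 0.155 by edgeR), and in the exchange it did (2.06, adjusted p = 0.0282). Gucy2f, a guanylate cyclase of the retina, gave 2.58 (SE 0.95, adjusted p = 0.117), and Fermt2, an adaptor of integrins, 0.42 (SE 0.75). Tested among genes with at least 30 junctions, Mmp24 (1.53) and Gucy2f (2.57) were both called, with an adjusted p of 0.0266 by edgeR for each. That fit adjusted over 29 genes only and called 11 of them, 2 higher and 9 lower, beside 3 of 162 in the main fit. Leaving all 8 sites out changed none of the calls named in this text from the main fits as labelled. Calls in the exchange and among genes with at least 30 junctions were not refitted without the sites.

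Chromosome 15 holds the break, at 61819219, and most junctions. The 1 Mb on either side of it took 75.7%, 80.9%, 77.9% and 80.5% of a library under anti-CD40/IL4, against 63.1%, 65.8% and 63.6% under RP105. The RP105 libraries were all lower, by 14.6 percentage points on average, whereas in the exchange the RP105 group was higher by 8.59 points. With the whole genome divided into 37 regions, 13 were called (35.1%), 9 higher (24.3%) and 4 lower (10.8%). The median difference over the 37 was 0.29. With TMM factors in place of library totals it was -0.10, and with that scaling chromosomes 1, 11, 13 and 14, at 0.60 to 0.69 in the whole-genome fit, were no longer called.

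Telomeric of the break, where Pvt1 lies next to Myc, junctions fell as well. From 100 kb to 1 Mb on that side the difference was -2.66 (SE 0.20, adjusted p = 2.56e-12 by edgeR), and from 10 to 100 kb it was -1.75 (SE 0.23, adjusted p = 1.85e-07). In the exchange they were -1.64 and -0.73, both called. Most of these junctions were prey that read away from the break. From 100 kb to 1 Mb these made up 2.30%, 2.27%, 2.65% and 2.16% of all junctions under anti-CD40/IL4, against 0.179%, 0.268% and 0.258% under RP105, 10.0-fold apart. From 10 to 100 kb they made up 2.01% ± 0.430 and 0.436% ± 0.0905. Prey that read toward the break from 10 to 100 kb made up 0.213% ± 0.0411 and 0.206% ± 0.0462, which overlapped. From 100 kb to 1 Mb prey reading toward it made up 0.276% ± 0.0262 and 0.180% ± 0.0349, which did not overlap (exact permutation p = 0.0286, adjusted 0.0562).

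In finer steps the density of prey reading away, as junctions per kb per 1000 of all junctions, held its level from 20 to 200 kb under anti-CD40/IL4 and kept falling under RP105. From 20 to 50 kb the mean was 0.157 ± 0.0464 for anti-CD40/IL4 against 0.0344 ± 0.0103 for RP105, from 50 to 100 kb 0.212 ± 0.0463 and 0.0186 ± 0.0127, and from 100 to 200 kb 0.151 ± 0.0224 and 0.0107 ± 0.00574. It then fell in both groups, to 0.0258 and 0.00223 from 200 to 500 kb and to 0.00131 and 0.00121 from 500 kb to 1 Mb, where the libraries of both groups overlapped. As a total over the stretch from 50 to 500 kb, prey reading away numbered 33.4 ± 4.31 per 1000 junctions under anti-CD40/IL4 (range 30.4 to 39.6) and 2.67 ± 0.216 under RP105 (2.45 to 2.89). The libraries labelled ATM-deficient under RP105 had 12.7 from 50 to 500 kb and those with KU55933 had 7.71, both between the 2 groups.

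Pvt1, a long noncoding RNA gene often hit by translocations in mouse plasma cell tumours, held most of these junctions. It had 189, 187, 329 and 148 under anti-CD40/IL4, against 29, 13 and 42 under RP105, or 3.25% ± 0.494 and 0.350% ± 0.0552 of all junctions. The median distance of its junctions from the break was 119 kb and 136 kb, and 91.2% and 64.3% read away from the break. Among the 12 genes listed as neighbours of Myc, Pvt1 made up 853 of 913 junctions under anti-CD40/IL4 and 84 of 236 under RP105. On the centromeric side of the list, Nsmce2, a SUMO ligase of the Smc5/6 complex, had 7, 4, 3 and 5 against 15, 17 and 50 junctions. Trib1, a pseudokinase, had no junction under anti-CD40/IL4, against 5, 4 and 6 under RP105, at least 5.53-fold higher. Telomeric of Pvt1, Asap1 had 15 and 24 and Adcy8, an adenylate cyclase, 8 and 3. Genes on chromosome 15 entered no gene test.

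**Figure D4:**
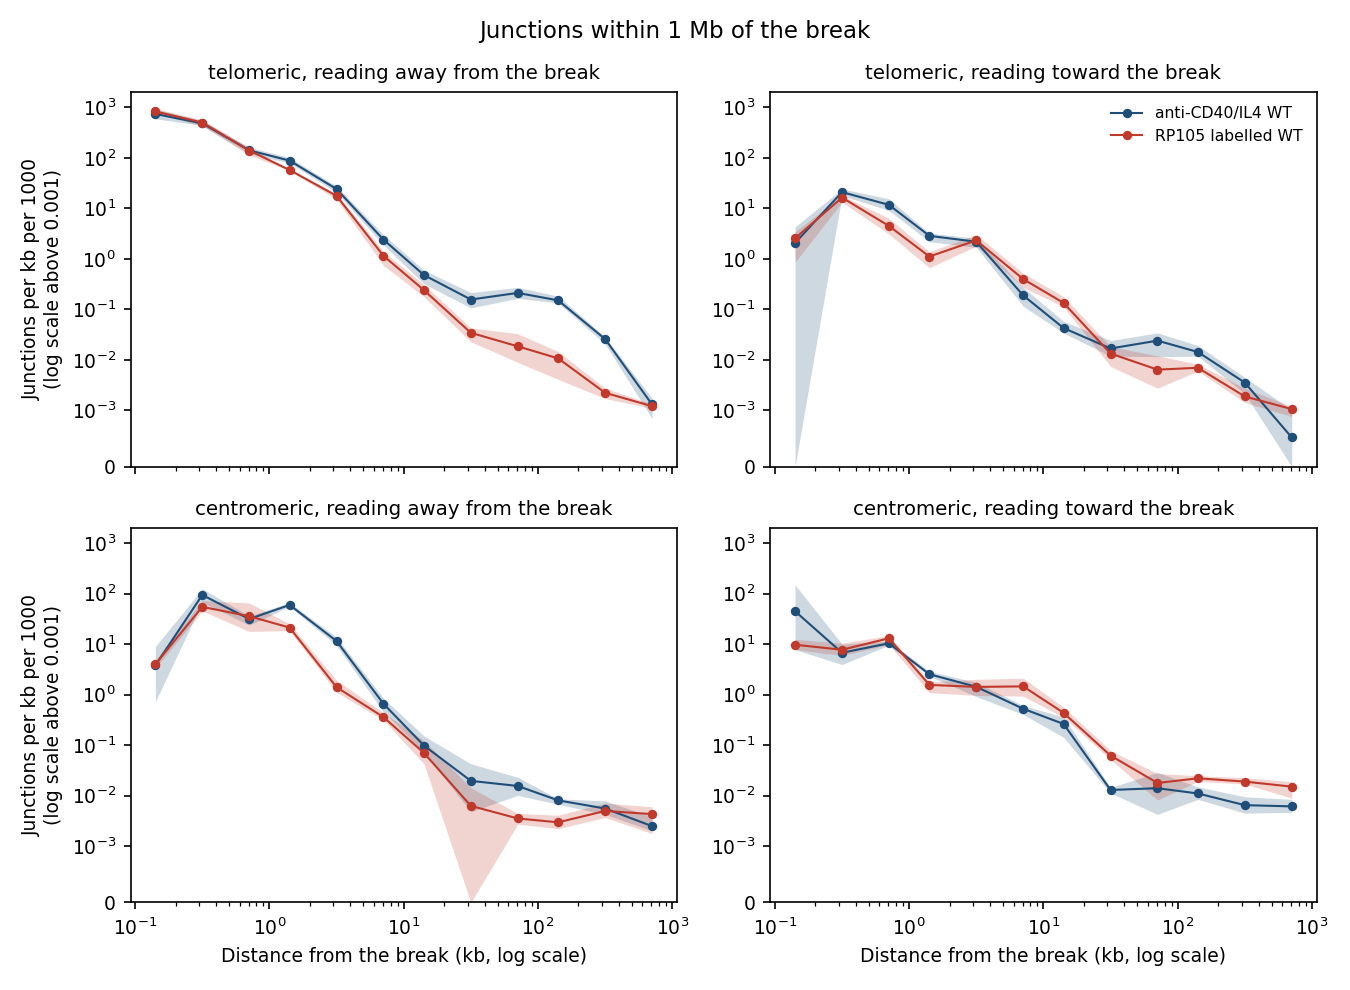
Junctions per kb per 1000 of all junctions in each distance interval within 1 Mb of the break, by side of the break (rows) and by whether the prey reads away from or toward it (columns). Points are group means at the middle of each interval and bands span the lowest to the highest library; the vertical scale is linear below 0.001 and logarithmic above, and the distance scale is logarithmic. On the telomeric side, prey reading away stay at 0.151 to 0.212 between 20 and 200 kb under anti-CD40/IL4, while under RP105 they go down from 0.0344 to 0.0107.

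Next to the break the centromeric side was called and the telomeric side was not. Within 10 kb centromeric the difference was -0.96 (SE 0.22, adjusted p = 0.000536 by edgeR), and -1.10 in the exchange, also called. Prey reading away made up 13.6%, 15.97%, 14.7% and 12.5% of all junctions there under anti-CD40/IL4, against 8.85%, 4.66% and 5.17% under RP105. The gap was between 1 and 5 kb, with 94.1 ± 6.06 per 1000 junctions under anti-CD40/IL4, 25.4 ± 4.81 under RP105, 32.9 in the libraries labelled ATM-deficient under RP105 and 38.5 with KU55933. Within 1 kb the values were 44.6 ± 10.0 and 35.02 ± 17.7, which overlapped. On the telomeric side within 10 kb the difference was -0.10 (SE 0.16, not called). Prey reading away there, the commonest kind of junction, made up 53.3% ± 3.52 and 49.96% ± 4.71 of all (exact permutation p = 0.400).

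Farther out on chromosome 15 the RP105 libraries had more junctions. Of the junctions beyond 1 Mb of the break, genome-wide, 22.1%, 19.3%, 18.5% and 19.8% lay on chromosome 15 under anti-CD40/IL4, against 39.5%, 37.6% and 41.1% under RP105. No library of either group lay between, and the difference of 19.5 points became 0.210 in the exchange. The whole-genome fit was scaled to all junctions, of which fewer lay within 1 Mb under RP105. It gave 2.25 for the centromeric side beyond 1 Mb (SE 0.18, adjusted p = 6.20e-12 by edgeR), 0.95 for the telomeric side beyond 1 Mb (SE 0.15, adjusted p = 2.79e-06) and 1.00 for 100 kb to 1 Mb on the centromeric side (SE 0.16, adjusted p = 6.86e-06). With the exchange they were -0.50, -0.94 and -0.75. On the centromeric side beyond 1 Mb, prey reading toward the break made up 1.34% ± 0.296 of all junctions under anti-CD40/IL4 and 6.70% ± 0.620 under RP105, and those reading away 0.742% ± 0.186 and 3.20% ± 0.551.

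Bins of 5 Mb on chromosome 15 were scaled to junctions beyond 1 Mb of the break, not to all junctions. Of 21 such bins, 6 were called, all higher and all centromeric of the break (28.6%). The bin at 50 to 55 Mb had 112, 65 and 228 junctions under RP105 and 15, 4, 13 and 7 under anti-CD40/IL4 (2.73, SE 0.28, adjusted p = 5.47e-19 by edgeR). The bin at 55 to 60 Mb had 307, 171 and 517 against 71, 32, 54 and 37 (1.73, SE 0.21, adjusted p = 1.57e-13). The bins at 35, 40 and 45 Mb gave 1.53, 1.94 and 2.25. In the exchange none of these 6 was called: the 50 and 55 Mb bins gave 1.06 (adjusted p = 0.161 by edgeR) and 0.62 (adjusted p = 0.217), those at 35 and 45 Mb 0.10 and 0.28, and those at 40 and 20 Mb -0.065 and -1.02. The bin at 20 Mb gave 1.58 as labelled and was lost without any of anti-CD40/IL4 replicates 1, 2 and 3 and RP105 replicates 1 and 2. None of the telomeric bins was called, and the nearest to the threshold, at 80 Mb, gave 0.85 (SE 0.27, adjusted p = 0.0508). KU55933 against none gave 1.89 at 50 Mb and 0.94 at 55 Mb in the same fit.

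These bins were filled by many genes. In the bin at 50 Mb, Ext1, a glycosyltransferase of heparan sulfate, had 11, 10 and 20 junctions under RP105 and 2, 1, 0 and 0 under anti-CD40/IL4. Its neighbour Samd12 had 14, 6 and 21 against 4, 1, 2 and 1, and Trps1, a GATA-type transcription repressor, 2, 3 and 18 against 1, 0, 1 and 1. In the bin at 55 Mb, Mtss1, an actin-binding protein, had 19, 9 and 35 against 7, 4, 4 and 3, and Zhx2, a zinc finger homeobox repressor, 7, 7 and 25 against 5, 0, 1 and 1. In the bin at 45 Mb, Csmd3, a very long gene, had 8, 0 and 18 against 3, 1, 3 and 1. Genes in the bins were named by their junction totals, and their counts follow those of their bins.

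The structure of the junctions was read from the deposited gap between bait and prey. Outside chromosome 15 the bait and prey overlapped by at least 1 base in 59.8% ± 2.23 of junctions under anti-CD40/IL4 and 61.8% ± 3.42 under RP105, exact permutation p = 0.429. Overlaps of 5 or more bases, often called microhomology, made up 7.08%, 7.10%, 7.07% and 9.27% against 9.77%, 11.03% and 11.4% (exact permutation p = 0.0571, adjusted 0.0963). Inserts of 5 or more bases made up 7.54% ± 0.993 and 10.2% ± 1.74, with the same p. Direct joins on chromosome 15 made up 9.74% ± 1.04 and 14.02% ± 0.873, without overlap, and 7.81% in the libraries labelled ATM-deficient under RP105. Outside chromosome 15 they made up 22.8% ± 2.48 and 18.9% ± 1.11, which overlapped (exact permutation p = 0.0857, adjusted 0.130). A bait length of 117 bases, the commonest in the range searched, was taken as an end at the first cutting site. That was not checked against the site sequence. The bait ended within 10 bases of this length in 52.6%, 38.2%, 34.5% and 35.8% of junctions outside chromosome 15 under anti-CD40/IL4. Under RP105 the shares were 22.4%, 26.9% and 23.0%. Shorter baits made up 28.95% ± 3.07 and 38.0% ± 2.12, in that order. Junctions outside chromosome 15 with a gene name in the deposited lists made up 58.5% ± 2.12 and 51.1% ± 0.529. The names include the switch regions, which held 529 of the 2596 named junctions under anti-CD40/IL4 and 38 of the 2585 under RP105. The difference thus repeats in part that in Igh, and the share without switch regions was not tested.

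**Figure D5:**
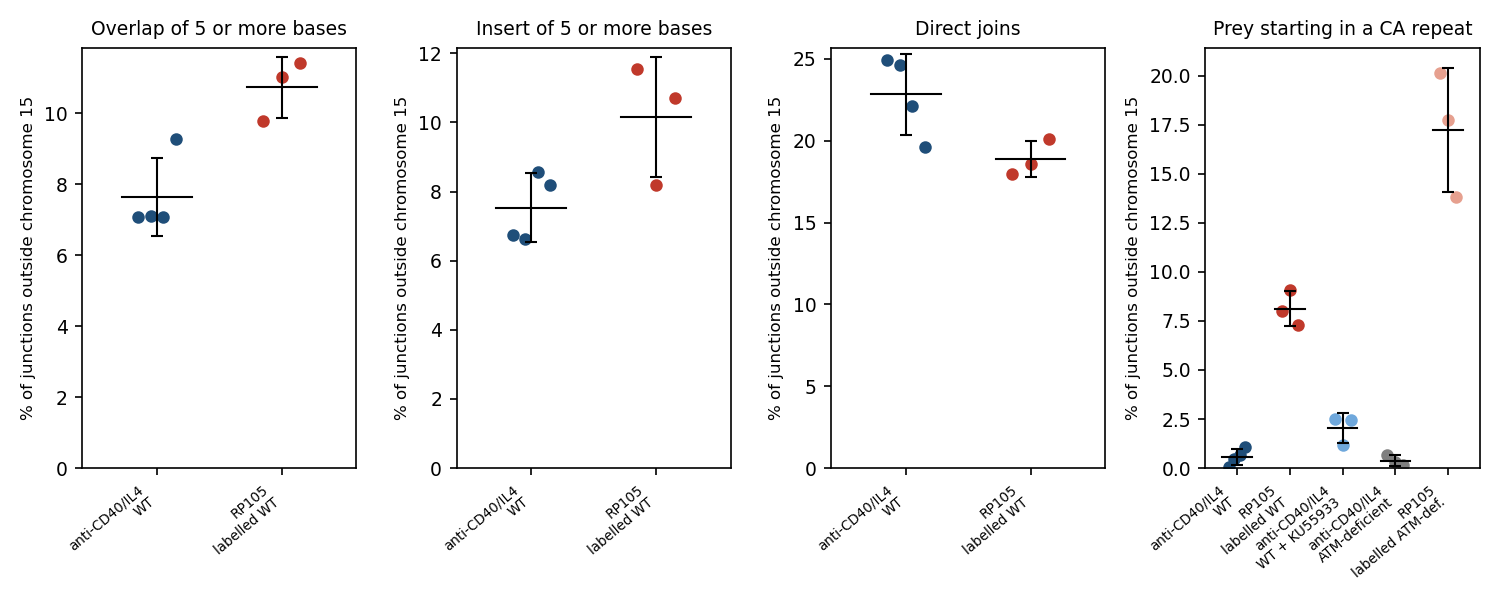
Percentage of junctions outside chromosome 15 with an overlap of 5 or more bases, an insert of 5 or more bases, a direct join, and a prey that starts in a CA repeat; points are libraries, with the mean and SD of each group. The first 3 panels show the 2 compared groups and the last all 5 groups. CA-repeat starts reach 7.29% to 9.10% in the libraries labelled WT under RP105 and stay at or under 1.09% in the WT libraries under anti-CD40/IL4.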

How the data were processed

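Junctions were mapped by HTGTS, genome-wide translocation sequencing from a Myc break. Per the file headers the deposited files hold 1 junction per row, with the prey position (mm9, per the submitters' processing notes), an alignment score that was not used, and a count of reads per junction that entered no test. Aligner and filters: not given in the sources used here. The counts tested are numbers of junctions per region, made from the deposited rows, without 56 identical, 3 mitochondrial and 1 broken row.

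Tallies were 29 regions outside chromosome 15, 37 of the whole genome, 5 Mb bins with at least 20 junctions and 162 genes with at least 10. The fits were first checked on simulated counts. Tools were edgeR 4.0.16, limma 3.58.1 and DESeq2 1.42.0 in R 4.3.3, and Python 3.11.15. The SE is the log2 difference over the root of F. Gene lists, members and regions were chosen with earlier results of these data known. Named genes were the 10 with most junctions in each group outside chromosome 15, list members, and genes of called bins. Alternatives were other scalings, tools, windows, bins, count minimums, blocks, CA-repeat starts, narrow sites and each library left out.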

Additional observations from a re-analysis of the deposited data

Results flagged for a closer look

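Of 61 checks of a group of 4 libraries, 3 held a library far from the others. The 95% limit used passes about 1 in 20 groups by chance. Under anti-CD40/IL4, replicate 1 had 4.55% of its junctions within 10 kb centromeric and reading toward the break (the others 1.78% to 2.10%). Replicate 4 had 9.27% overlaps of 5 or more bases outside chromosome 15 (7.07% to 7.10%), and replicate 3 had 14.2% inserts of 5 or more bases on chromosome 15 (11.4% to 11.9%).

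The difference between RP105 and anti-CD40/IL4 was not the same under both genotype labels, by a test of the interaction in the edgeR fit (the log2 difference in the libraries labelled WT minus that in those labelled ATM-deficient). Outside chromosome 15 it was 2.85 for chromosome 12 centromeric of Igh and 0.94 for chromosome 19. In the whole-genome fit it was 4.83 for chromosome 12 centromeric of Igh and 4.62 and 3.42 for chromosome 15 beyond 1 Mb on the centromeric and the telomeric side. On chromosome 15 it was also 2.11 for 100 kb to 1 Mb centromeric, -3.08 for 100 kb to 1 Mb telomeric and -2.40 for 10 to 100 kb telomeric. It was 2.90 for chromosome 19, 2.06 for chromosome 11, 1.12 for chromosome 1, 2.15 for chromosome 13 and 1.80 for chromosome 14.

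Among bins, the interaction was 4.97, 4.27 and 2.67 for those at 105, 100 and 85 Mb of chromosome 12. On chromosome 15 it was 3.63, 2.84, 2.999, 3.13, 3.32 and 1.80 for the bins at 20, 35, 40, 45, 50 and 55 Mb. For the constant and switch part of Igh the interaction was -1.11 (SE 0.44, adjusted p = 0.102 by edgeR), so a difference between the labels was not found there at this depth.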

How the results depend on the processing

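The main limits are the labels under RP105, the stimulus that goes with sequencer and harvest day, and small counts in most genes. Counts of calls that moved by over 1.5 times were as follows. With DESeq2, 2 of the regions outside chromosome 15 were called, 8 of the whole-genome regions, 3 of the 5 Mb bins and 10 genes. With junctions beyond 1 Mb on chromosome 15 kept in the library size, the calls were 14, 17 and 10 for regions, bins and genes, 2 regions higher and 12 lower. Bins of 2 Mb gave 12 calls. Genes with at least 30 junctions gave 11 of 29, and the run as a random block (limma voom) 11 of 162 genes. Leaving out 1 library at a time gave 2 to 4 regions outside chromosome 15, 13 to 15 whole-genome regions, 5 to 7 bins outside and 5 to 7 on chromosome 15, and 3 to 6 genes.

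In those fits the Igh difference ranged from -3.39 to -3.15 and chromosome 12 centromeric of Igh from 1.87 to 2.08. Chromosome 15 from 100 kb to 1 Mb telomeric ranged from -2.70 to -2.61 and beyond 1 Mb centromeric from 2.16 to 2.42. As shares in percentage points, the ranges were -11.9 to -11.0 for Igh, 8.52 to 9.02 for chromosome 12 centromeric, 18.6 to 20.3 for chromosome 15 beyond 1 Mb and -15.6 to -13.9 within 1 Mb.

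In the exchange, 21 whole-genome regions were called, 1 higher and 20 lower (8 of the 13 called as labelled among them, whatever the direction), and 2 chromosome 15 bins, both lower and none of the 6 called as labelled. Differences that turned were chromosome 19 outside chromosome 15 (-0.061), and in the whole-genome fit chromosome 15 beyond 1 Mb (-0.50 centromeric, -0.94 telomeric), 100 kb to 1 Mb centromeric (-0.75), chromosome 12 centromeric of Igh (-0.18) and chromosomes 19 (-0.81), 11 (-0.36), 13 (-0.38) and 14 (-0.13). So did the bins at 85 Mb of chromosome 12 (-0.089) and at 40 (-0.065) and 20 Mb (-1.02) of chromosome 15. Shares that turned, in points, were within 1 Mb (8.59), all of chromosome 15 (6.91), within 10 kb telomeric reading away (21.01), 100 kb to 1 Mb centromeric reading away (-0.25) and toward (-0.14), beyond 1 Mb telomeric reading away (-0.38) and toward (-0.67), beyond 1 Mb centromeric reading away (-0.37) and toward (-0.26), and direct joins on chromosome 15 (-1.93). The shares of chromosome 15 beyond 1 Mb (0.210) and of chromosome 12 centromeric (1.26) no longer had the smallest p. The cause was not tested.

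Other alternatives turned chromosome 11 with 1 Mb left out (-0.069), and as shares of all junctions chromosome 12 (0.189) and gene-named junctions (1.14). A replicate block gave 3, 15, 6, 7 and 3 calls for the 5 tallies. Deviations of same-numbered libraries from their group means correlated at -0.117, -0.013 and -0.021 over 233 bins. With few junctions per bin and library, and means of 3 or 4 libraries, these values cannot show whether the numbers pair libraries.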
